A study of Rattus norvegicus with 3 samples.

Results

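The genes of synaptic vesicle and active zone proteins were examined in 3 single somata (cell bodies) of rat hippocampal neurons. They were 10 genes, picked by the names of their proteins when earlier results of these data were already known. Syp, Syn1, Syn2, Sv2a and Sv2b encode proteins that sit in or on the synaptic vesicle, and Unc13a, Unc13b, Rims1, Bsn and Pclo encode proteins of the active zone. A probe set, the group of short oligonucleotides that reads 1 transcript on the array, was kept where the annotation gave it the symbol of 1 of these genes and no other. This left 17 of the 31099 probe sets, 10 for the vesicle genes and 7 for the active zone genes, and all 10 genes were measured.

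Each array carried amplified RNA from the cell body of 1 neuron of a Sprague-Dawley culture. The culture was prepared at embryonic day 19, grown for 14 days and left untreated. The paper describes the neurons it collected as pyramidal, and the sample titles say only neuron. There was 1 group of 3 biological replicates, called cells 1, 2 and 3 after the labels, and no dendrite, tissue or other control array was analysed here. The labels name no animal and no dish, so the spread between cells may be partly technical.

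Neurons release transmitter where vesicles meet the active zone, a protein-dense patch of the presynaptic membrane. Synapsins hold vesicles in a reserve near the terminal, synaptophysin and the SV2 proteins span the vesicle membrane, and RIM and UNC13 proteins dock vesicles and make them ready to fuse. Bassoon and piccolo are very large scaffolds that build the site. These proteins work in the axon, whereas their mRNA is made in the cell body, the compartment that was measured.

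Promoters of Syp and Bsn are shown because these were the genes with a probe set above background in every cell, as described below. Each is the stretch of 250 bases before the transcription start in RefSeq (rat, build GRCr8), written 5′ to 3′ on the strand of the gene. Capitals mark the GC box (GGGCGG, or CCGCCC on the other strand), a site of the general activator SP1.
Syp, chrX:17536450-17536699, minus strand: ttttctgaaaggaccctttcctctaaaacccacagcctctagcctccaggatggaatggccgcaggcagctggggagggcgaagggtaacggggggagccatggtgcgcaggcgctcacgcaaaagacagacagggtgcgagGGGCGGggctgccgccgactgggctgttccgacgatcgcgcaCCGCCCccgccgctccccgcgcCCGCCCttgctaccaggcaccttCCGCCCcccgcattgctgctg
Bsn, chr8:117754413-117754662, minus strand: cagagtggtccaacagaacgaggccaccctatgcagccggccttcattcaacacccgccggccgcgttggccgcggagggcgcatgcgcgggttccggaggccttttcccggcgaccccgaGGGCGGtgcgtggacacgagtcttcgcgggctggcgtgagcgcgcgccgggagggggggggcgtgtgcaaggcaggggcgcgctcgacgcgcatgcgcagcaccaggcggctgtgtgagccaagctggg
The Syp promoter held 4 GC boxes and the Bsn promoter held 1, with none overlapping another. All 10 genes matched a RefSeq promoter and Unc13b matched 2, which gave 11 sequences. A GC box on either strand was present for 7 of the 10 genes, namely all 5 active zone genes and the vesicle genes Syp and Syn2, against 30.5% of all 33469 promoters of this length. The E box (CACCTG, or on the other strand CAGGTG) was present for Sv2b and Pclo, and in 15.9% of all promoters. No member held the TATA box letters (TATAAA, or TTTATA on the other strand), which 12.9% of promoters held. The 11 promoters were rich in G and C, at 54.8% to 72.8%, where the median of all promoters was 51.2%. The shares of all promoters were not matched for this, and the GC box consists of G and C alone. They also count promoters, whereas the members were counted as genes. The GC box counts are therefore not a measure of enrichment. These matches describe the letters of the window and do not show that a factor binds there.

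Values are log2 intensities as deposited. Background on each array was the 95th percentile of 167 genes of other organs and of odour, pheromone and taste receptors, which a neuron is not expected to use. It lay at 9.55 log2 in cell 1, 10.04 in cell 2 and 9.47 in cell 3, against array medians of 7.23, 7.16 and 7.09, and 9 of the 167 genes exceed it on each array by construction. The percentile of a gene is its place among the 14218 genes of the same array, where a gene with several probe sets takes their median. A percentile depends on how brightly a probe set hybridises as well as on the amount of RNA, so it does not rank transcripts by abundance. The spread is given as SD over 3 cells, and precision is limited by how few arrays there are.

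The neuronal label of the arrays was read from markers. The 8 general neuronal genes had median percentiles of 83.1, 86.3 and 92.7 in cells 1, 2 and 3, and 2, 2 and 5 of them were above background. Mapt and Stmn4 passed in every cell, while Map2 lay at 28.7, 17.7 and 67.5. Of the 7 pyramidal markers measured, 2, 2 and 3 were above background in cells 1, 2 and 3. The pyramidal factor Neurod2 (13.21 ± 0.29 log2) and Nrgn (percentiles 94.8, 99.4 and 98.8) passed in every cell, and Neurod6 in cell 3. The vesicular glutamate transporter Slc17a7 lay at 55.3, 51.2 and 51.2 and Camk2a at 26.5, 19.6 and 26.2. The medians of the 7 were only 54.4, 51.2 and 51.2. Oligodendrocyte genes had higher medians in each cell, at 72.0, 63.0 and 57.8. Vascular genes had medians of 75.3, 63.5 and 46.1 and astrocyte genes of 77.3, 33.2 and 37.4. Those of interneuron genes were 49.5, 63.0 and 35.7, and those of microglial genes 51.6, 50.3 and 28.3. Some glial genes also read high in cell 1: 3 of 7 microglial and 2 of 7 astrocyte markers were above background there, and none in cells 2 and 3. Among all genes, 8.12%, 5.55% and 10.5% were above background in cells 1, 2 and 3. The glial genes concerned were Tyrobp, Csf1r, Itgam, Gja1 and S100b. The other microglial markers lay lower in cell 1: Aif1 at a percentile of 1.65, Cx3cr1 at 17.2, C1qa at 21.5 and C1qb at 51.6. Of the other astrocyte markers in cell 1, Aldh1l1 lay at 2.88, Gfap at 14.9, Slc1a2 at 28.2, Slc1a3 at 77.3 and Aqp4 at 80.0. Of the markers of other cell types, 1, 2 and 2 of 7 vascular genes were above background in cells 1, 2 and 3. The vascular marker Vwf passed in all 3, at 12.59 ± 0.12 log2, and Esam in cells 2 and 3. Of 8 interneuron genes, 1 was above background in each cell (Calb2 in cells 1 and 3 and Vip in cell 2). Of 7 oligodendrocyte genes, 1 was above background in cell 2 (Sox10). The control probe sets for Gapdh showed almost equal ends in cell 1 (3′ minus 5′ of 0.20 log2) and a far brighter 3′ end in the other arrays (3.06 log2 for cell 2 and 2.93 log2 for cell 3). The middle Gapdh probe set read 8.67, 8.91 and 8.11 log2 in cells 1, 2 and 3, below both ends in cells 1 and 3. For beta-actin the 3′ end read 7.96, 8.54 and 9.38 log2 and the 5′ end 7.64, 6.46 and 7.67.

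Across the 10 genes, a few read high in the soma and most did not stand out. Of the 17 probe sets, 5 were above background in cell 1, 3 in cell 2 and 6 in cell 3. Among all 20832 probe sets with 1 symbol the shares above background were 10.1%, 7.55% and 12.6% in the same cells. Syp 1368276_at and Bsn 1374192_at were above background in all 3 cells, which is 2 of 17 (11.8%) against 2.94% of all probe sets. Sv2b 1369628_at and Unc13b 1369331_a_at passed in 2 cells, 4 probe sets of Syn2, Sv2a and Bsn passed in 1 cell, and 9 probe sets passed in none. Those 9 included every probe set of Syn1, Unc13a, Rims1 and Pclo.

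**Figure D1:**
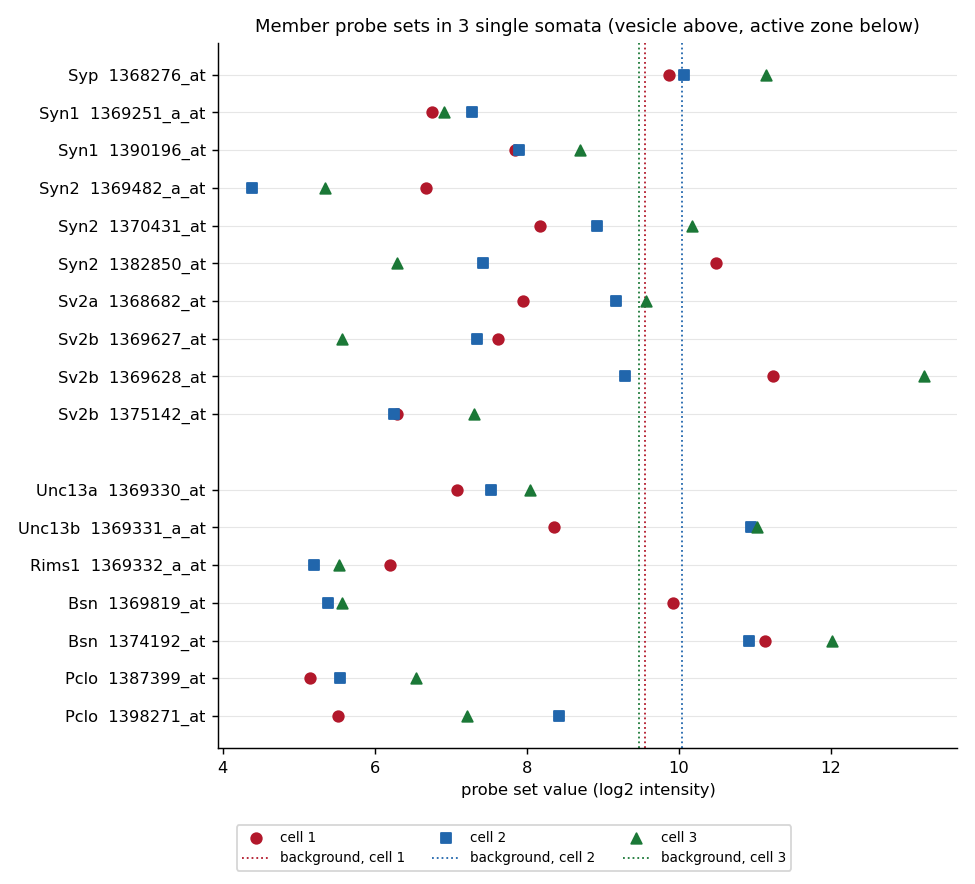
Log2 intensity (horizontal axis) of the 17 member probe sets with circles for cell 1, squares for cell 2 and triangles for cell 3, vesicle genes above and active zone genes below; dotted lines give the background of each array. Syp and Bsn 1374192_at lie right of the background of their array in every cell, and 9 probe sets lie left of it in all 3.

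Among the vesicle genes, synaptophysin had the highest percentile in each cell when genes took the median of their probe sets. Syp is a membrane glycoprotein used widely as a marker of vesicles. Its probe set read 9.87 log2 in cell 1, 10.06 in cell 2 and 11.15 in cell 3, or 10.36 ± 0.69 (SD, n = 3 cells). All 3 values were above background, although the margin in cell 2 was 0.02 log2, against 0.31 in cell 1 and 1.68 in cell 3. Its percentile among genes was 95.4 ± 2.17.

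Sv2a, a vesicle glycoprotein and the binding site of the antiepileptic drug levetiracetam, read 7.95, 9.17 and 9.57 log2 in cells 1, 2 and 3. Its percentiles were 68.7, 88.1 and 90.3, with cell 1 below the other cells. Only the value of cell 3 was above background, by 0.10 log2.

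Sv2b, the second SV2 isoform of forebrain neurons, was read by 3 probe sets that disagreed. Probe set 1369628_at read 11.24 log2 in cell 1, 9.29 in cell 2 and 13.22 in cell 3, the last of which was the highest value of any member on any array. Probe set 1369627_at read 7.62, 7.35 and 5.57, and probe set 1375142_at read 6.30, 6.25 and 7.30. The first and the third were highest in cell 3, where the second was lowest. The median of the gene came from 1369627_at in cells 1 and 2 and from 1375142_at in cell 3, so its small spread as a gene is not that of any probe set.

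The synapsins, phosphoproteins that tether vesicles to one another and to actin, were read by 5 probe sets. Syn1 lay near the middle of the arrays and read 6.75, 7.28 and 6.91 log2 with probe set 1369251_a_at and 7.84, 7.89 and 8.69 with probe set 1390196_at, and no value of the gene reached background. The second was brighter in each cell. Its percentile as a gene was 58.5 ± 7.26.

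Syn2 differed most between probe sets. Probe set 1370431_at read 8.17 log2 in cell 1, 8.92 in cell 2 and 10.17 in cell 3. Probe set 1382850_at ran the other way, at 10.49, 7.42 and 6.29. Probe set 1369482_a_at was dim, at 6.67, 4.38 and 5.35. The gene was thus above background in cell 3 by the first and in cell 1 by the second, and its percentile of 73.8, 55.3 and 27.4 in cells 1, 2 and 3 came from a different probe set in cell 1 than in cells 2 and 3.

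Among the active zone genes, Unc13b and Bsn read high and Rims1 read low. Unc13b (Munc13-2), a priming factor that readies docked vesicles for fusion, read 8.35 log2 in cell 1, 10.95 in cell 2 and 11.03 in cell 3. Cells 2 and 3 were above background and cell 1 was 1.20 log2 below it. Its paralogue Unc13a (Munc13-1), the main priming factor of glutamatergic synapses in mouse, read 7.08, 7.53 and 8.04, below background in every cell.

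Rims1 (RIM1), which links vesicle RAB proteins, UNC13 and calcium channels, read 6.20, 5.20 and 5.53 log2. Its percentile of 13.7 ± 7.36 was the lowest of the 10 genes. The single probe set carries a suffix of the manufacturer for probes that can match several transcripts, as does that of Unc13b, and the same holds for 1 probe set each of Syn1 and Syn2.

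Bsn (bassoon) was read by a bright and a variable probe set. Probe set 1374192_at read 11.14, 10.92 and 12.02 log2 in cells 1, 2 and 3, at percentiles of 97.9, 96.8 and 99.0 among all probe sets. Probe set 1369819_at read 9.92 in cell 1 but 5.38 in cell 2 and 5.57 in cell 3, at percentiles of 92.3, 13.4 and 18.3. Both probe sets were therefore above background in cell 1, and only the first was in cells 2 and 3. As a gene, Bsn took their midpoint, at 10.53, 8.15 and 8.79 log2 (percentiles 96.8, 72.6 and 83.0 among genes). In cells 2 and 3 neither probe set read near that value. Cell 1 was also the array with the smallest difference between the ends of Gapdh and with the glial readings above, and the part of either in the value of 1369819_at was not tested.

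Pclo (piccolo), the relative of bassoon, was not above background with either probe set. Probe set 1398271_at read 5.51, 8.42 and 7.21 log2, with cell 2 highest, and probe set 1387399_at read 5.15, 5.54 and 6.54, with cell 3 highest. Both were lowest in cell 1, where Bsn 1369819_at was highest.

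**Figure D2:**
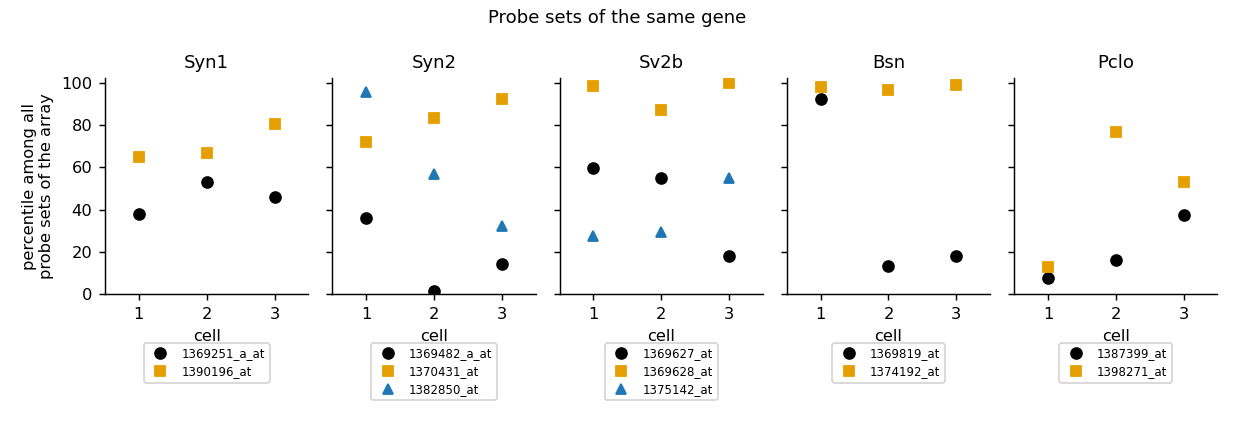
Percentile among all probe sets of the array (vertical axis) in cells 1, 2 and 3 (horizontal axis) for the 5 member genes with several probe sets, with 1 symbol per probe set. The probe sets of Bsn are close in cell 1 (97.9 and 92.3) and far apart in cell 2 (96.8 and 13.4), and those of Syn2 change order between cells.

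Probe sets of the same gene often disagreed. Of the 5 members with several probe sets, 3 (60.0%) had mean percentiles more than 50 points apart, namely Syn2 (65.2 points), Sv2b (57.7) and Bsn (56.6), and the gaps of Syn1 and Pclo were 25.1 and 27.0. Over all 4526 genes with several probe sets 19.7% were that far apart. The share depends on the number of probe sets, since the median gap was 22.4 points for genes with 2 probe sets and 37.6 points for genes with 3, and Syn2 and Sv2b had 3.

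The member probe sets varied between the cells about as much as other probe sets. After quantile normalisation, which gives the arrays the same distribution, 13 of the 17 (76.5%) spanned over 1 log2 across the cells, against 75% of all probe sets with 1 symbol. The median span was 1.62 log2 for the members and 1.62 for all. The probe sets that spanned less than 1 log2 were both of Syn1, that of Rims1 and Bsn 1374192_at, from 0.64 to 0.91 log2. The widest were Bsn 1369819_at (4.63 log2), Syn2 1382850_at (4.23) and Sv2b 1369628_at (3.79). Cell 1 was the lowest of the cells for 10 of the 17 probe sets (58.8%), against 43% of all probe sets, and cell 3 the highest for 9 (52.9%), against 37.6%. Across the 17 probe sets cells 2 and 3 were the most alike (Pearson's r = 0.866), and cell 1 gave r = 0.530 with cell 2 and r = 0.585 with cell 3. These values describe 17 probe sets that share genes, and over all 14218 genes the same pairs gave 0.676, 0.473 and 0.437.

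Vesicle genes were then compared with active zone genes, and their ranges overlapped in every cell. The median percentile of the vesicle genes was 68.7 in cell 1, 59.7 in cell 2 and 65.2 in cell 3, or 64.5 ± 4.56 (SD, n = 3 cells). That of the active zone genes was 44.3, 58.3 and 70.6 in the same cells, or 57.7 ± 13.1. The vesicle median exceeded the active zone median by 24.4 points in cell 1 and by 1.35 points in cell 2, and it was below it in cell 3 (-5.45 points). The mean difference of 6.76 ± 15.6 points was smaller than its SD over the cells. On the quantile-normalised log2 scale the difference was 0.92, 0.05 and -0.24 log2 in cells 1, 2 and 3, or 0.24 ± 0.60. No p-value is given, because the genes are not replicates and an exact sign-flip test over 3 cells cannot give a two-sided p below 0.25.

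**Figure D3:**
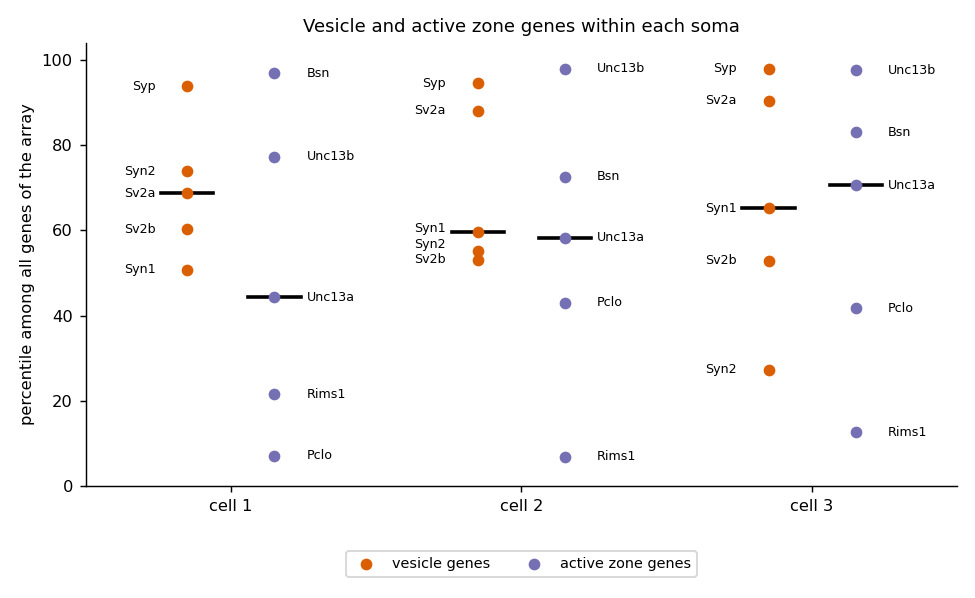
Percentile among the 14218 genes of the array (vertical axis) of the vesicle genes (left in each cell, orange) and the active zone genes (right, violet) in cells 1, 2 and 3, with a black bar at the median of each group. The medians are 68.7 and 44.3 in cell 1, 59.7 and 58.3 in cell 2 and 65.2 and 70.6 in cell 3.

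The active zone genes covered a wider stretch of the array than the vesicle genes in each cell. Vesicle genes ran from a percentile of 50.8 to 93.8 in cell 1, from 53.2 to 94.5 in cell 2 and from 27.4 to 97.9 in cell 3. Active zone genes ran from 7.19 to 96.8, from 6.93 to 97.9 and from 12.7 to 97.5 in the same cells, with Pclo or Rims1 at the lower end and Bsn or Unc13b at the upper end. Of the 25 pairs of a vesicle and an active zone gene, the vesicle gene was higher in 16, 15 and 14 pairs in cells 1, 2 and 3. It was higher in all 3 cells for 11 pairs and lower in all 3 for 7.

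The size of the difference, and under some settings its sign, depended on how the probe sets were combined and on single cells and genes. Taking for each gene its brightest probe set put the vesicle genes higher by 22.2 ± 9.22 points. The vesicle genes had more probe sets to choose from, 10 against 7. This rule moved Sv2b from 55.5 to 93.3, Syn2 from 52.2 to 77.8 and the active zone gene Bsn from 84.1 to 97.0. Without the probe sets that can match several transcripts, the difference was 16.6 ± 6.8. That setting drops Unc13b and Rims1, and also 1 probe set each of Syn1 and Syn2. It moved Syn1 from 58.5 to 71.4 and Syn2 from 52.2 to 78.9, while the active zone median stayed at 57.7. With the mean over the genes of a group in place of the median, the difference was 13.4 ± 7.26. The differences under these settings were each larger than their SD over the cells, whereas the mean of the probe sets of each gene gave 15.9 ± 16.3. With each gene averaged over the cells first, the group medians were close, at 58.5 for the vesicle genes and 57.7 for the active zone genes. Without cell 1 the mean difference was -2.05 points. Leaving out 1 gene in turn kept the vesicle genes higher for 8 of the 10 genes, with differences from 2.59 points (without Syp) to 17.9 points (without Unc13b or without Bsn), and gave -3.18 points without Rims1 or without Pclo. With 1 probe set standing for each gene there were 72 possible choices, whose mean differences ran from -17.9 to 60.9 points with a median of 23.6. Vesicle genes were higher in the mean over the cells in 64 choices and in each of the 3 cells in 55, while the active zone genes were higher in each cell in 2. These choices reuse the same probe sets and arrays, so they are not independent and their counts do not measure certainty.

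In the order of mean percentiles, Syp (95.4 ± 2.17) was followed by Unc13b (90.9 ± 11.8), Bsn (84.1 ± 12.1) and Sv2a (82.4 ± 11.9). Syn1 (58.5 ± 7.26), Unc13a (57.7 ± 13.1), Sv2b (55.5 ± 4.18) and Syn2 (52.2 ± 23.4) came next, and Pclo (30.6 ± 20.3) and Rims1 (13.7 ± 7.36) were last. The ranges of neighbours over the cells overlapped in 8 of the 9 neighbouring pairs. The exception was the step of 23.9 points between Sv2a and Syn1. The order depended on how probe sets were combined: with the brightest probe set per gene it ran Bsn (97.0), Sv2b (93.3), Syp (91.6), Unc13b (86.8), Syn2 (77.8), Sv2a (75.6), Syn1 (63.6), Unc13a (50.1), Pclo (40.7) and Rims1 (12.6). Under both rules vesicle and active zone genes were mixed in the upper part of the order, and Pclo and Rims1 were last.

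Relatives of the members in the same families read at both ends of the arrays. The synapsin Syn3 lay at percentiles of 24.5, 5.76 and 3.20 in cells 1, 2 and 3 and the SV2 protein Sv2c at 35.1, 33.2 and 14.6, below Syn1 and Sv2a in each cell. Synaptoporin, Synpr, a relative of synaptophysin, lay at 90.5 in cell 1 but at 30.7 in cell 2 and 33.1 in cell 3. Of the RIM genes, Rims3, a short form without the domain that binds RAB proteins, read 10.39, 9.25 and 8.67 log2 (percentiles 96.2, 88.8 and 81.3), above Rims1 in every cell, and Rims2 lay at 78.6, 20.4 and 5.10. Unc13c lay at 20.8, 91.6 and 8.94, and Unc13d, known in human for granule release in blood cells, at 47.5, 51.0 and 70.6.

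Other presynaptic genes, listed by function, gave a background for the members. Of 99 such genes measured, 8 (8.08%) were above background in cell 1, 5 (5.05%) in cell 2 and 19 (19.2%) in cell 3, against 8.12%, 5.55% and 10.5% of all 14218 genes. Their median percentile was 62.2 ± 5.12. Taken per gene, the members above background numbered 2, 2 and 3 of 10 in cells 1, 2 and 3, and Syp was the only member above it in all 3 cells, where 2.18% of all genes were.

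Among the 31 other vesicle genes, the median percentile was 55.3 ± 6.43 and 1, 0 and 6 genes were above background in cells 1, 2 and 3. Scamp1, a carrier membrane protein (92.5, 87.9 and 91.8), the synaptogyrin Syngr3 (77.1, 90.4 and 97.4) and Dnajc5, the vesicle chaperone CSP (86.8, 84.6 and 89.6), led them. The calcium sensor Syt1 (31.9, 24.7 and 7.09), Syn3 and Rab3c (8.49, 0.879 and 23.2) closed the list. Rab3c is a small GTPase of vesicles.

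The 31 other active zone genes had a median percentile of 57.3 ± 3.01, with 4, 1 and 4 genes above background. Erc1 (ELKS), a scaffold that binds RIM, lay at 83.1, 94.5 and 94.7, Cadps (CAPS1), a priming factor of dense-core vesicles, at 92.6, 85.7 and 93.2, and Rims3 completed the upper end. Arhgef7 (21.8, 29.0 and 34.1), the liprin Ppfia4 (14.7, 15.7 and 6.06) and the scaffold Lin7c (1.70, 8.29 and 7.92) were lowest.

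Genes of membrane fusion and of vesicle retrieval had median percentiles of 70.9 ± 5.55 over 13 genes and 70.5 ± 1.04 over 24 genes. These are means of the medians of each cell. With each gene averaged over the cells first, the medians were lower, at 64.7 and 60.9. The fusion list was led by the SNARE protein Snap25 (91.2, 91.7 and 97.1), the endosomal SNARE Stx7 (63.3, 95.2 and 95.3) and syntaxin 1A, Stx1a (82.2, 75.7 and 91.5), and ended with Stxbp5, Nsf and Cplx3. In cells 1, 2 and 3, 0, 1 and 3 of its genes were above background. Synaptojanin 1, Synj1, a lipid phosphatase that uncoats vesicles, read 11.36, 11.80 and 11.78 log2, and Ap2m1, a subunit of the clathrin adaptor AP-2, read 11.07, 10.88 and 12.27. These 2 retrieval genes were above background in all 3 cells, which no other gene of the 4 lists was, and clathrin light chain Clta (10.78, 10.03 and 10.52) was so in 2. The retrieval list had 3, 3 and 6 genes above background and ended with Epn2, Itsn2 and Dnm3.

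**Figure D4:**
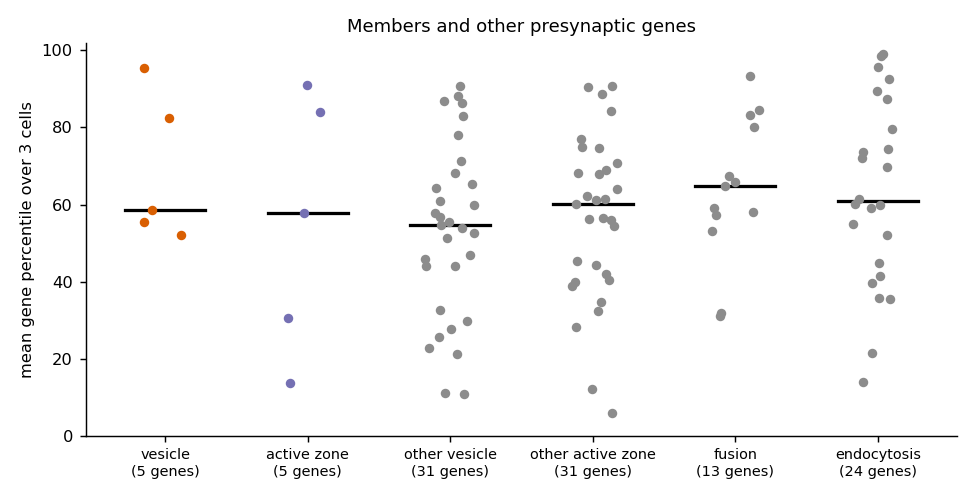
Mean percentile over the 3 cells (vertical axis) of each vesicle and active zone member and of the other presynaptic genes, with 1 point per gene and a black bar at the median of these means. The bars lie between 54.7 (other vesicle genes) and 64.7 (fusion genes), with the vesicle members at 58.5 and the active zone members at 57.7.

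Genes whose percentiles lay closest to a member were sought over the 3 cells among the other 14217 genes. Nearest to Syp were Atp6v1d, a subunit of the vacuolar proton pump (93.9, 95.3 and 98.2), the pacemaker channel Hcn3 (93.6, 95.4 and 97.5) and Ndrg4 (94.0, 94.7 and 98.9), with mean absolute differences of 0.406, 0.472 and 0.489 points. Nearest to Bsn were Slc35a2, a transporter of nucleotide sugars (97.5, 72.3 and 80.0), the Golgi glycoprotein Glg1 (98.5, 72.0 and 80.5) and the autophagy gene Atg16l1 (95.5, 70.1 and 81.6), with differences of 1.35, 1.58 and 1.71 points. With 3 arrays, closeness here means a similar place on each array and nothing more. For Bsn that place was the midpoint of its probe sets, which neither of them read in cells 2 and 3.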

How the data were processed

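Gene expression was measured on Affymetrix rat arrays, 1 for each of 3 somata. The authors deposited log2 values per probe set, and the labels name RMA 2.0. The study's methods describe dendrite and tissue arrays, and summarising, centring and scaling as given there are not stated for these somata. The deposited medians, from 7.09 to 7.23, show that the values were not centred. No detection calls were used, and a genome build was not given in the sources used here. Amplified RNA came from repeated rounds, the last of 14 h, and 5 µg went on each array. Repeated amplification of the RNA of 1 cell can change relative levels and shorten transcripts towards the 3′ end.

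Symbols came from the platform annotation, which can be old: 20832 probe sets had 1 symbol, 436 several and 9831 none listed, control probe sets included. The gene numbers of all 10 members matched the RefSeq table of GRCr8, used for names and promoters. Genes took the median of their probe sets, and ranks within an array, with ties averaged, gave percentiles. Of the background genes, 29 were receptors and 138 organ genes. No test across genes was run and no p-value computed. Members and lists were chosen with earlier results of these data known. Named genes were all members, their family relatives, the 3 highest and 3 lowest of each list and the 3 nearest to Syp and Bsn. Genes of the lists without a single-symbol probe set were not analysed here. Alternatives covered how probe sets were combined, scaling, background and leaving out each cell. Ranking and normalisation were tested on simulated data. Python 3.11.15, numpy 2.4.6, pandas 2.3.3 and scipy 1.17.1 were used.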

Additional observations from a re-analysis of the deposited data

How the results depend on the processing

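The difference between vesicle and active zone genes changed sign under 4 of its settings, and the causes were not tested. Leaving out 1 cell gave differences from -2.05 (without cell 1) to 12.9 points (without cell 3). Of the settings chosen after seeing the data, leaving out Rims1 or Pclo gave -3.18 points, and choosing 1 probe set per gene gave -17.9 to 60.9. The vesicle median of 64.5 moved to 78.9 with the brightest probe set per gene, to 73.4 with the mean of the probe sets and to 74.3 without probe sets that can match several transcripts, a setting that drops Unc13b and Rims1. With ranks taken over the 687 genes that passed background in their mean, which left Syp and Unc13b of the members, the vesicle value was 42.9 and the active zone value 39.8. Counting the top 5% of the array left 3, 2 and 4 member probe sets in cells 1, 2 and 3 in place of 5, 3 and 6, and a background of receptor genes alone gave 6 in cell 2 in place of 3. Of the 57 alternative values computed for the main results, the other 45 stayed within the SD over cells or close in count or, on a log2 scale, kept their sign. They include every value for the other presynaptic genes. These limits were wide. The difference of 6.76 points had an SD of 15.6, so 22.2 points with the brightest probe set per gene lay within it. A count of 4 in place of 6 in cell 3 was taken as close. The number 45 therefore does not measure stability. No paired analysis was possible because all 3 arrays form 1 group, so there were no samples of different groups to pair; the vesicle and active zone genes themselves were compared within each cell. With no counts and no detection calls, readings below background are not evidence that a transcript was absent.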
